A study of Mus musculus with 48 samples.

Results

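The hypothalamus was set against the frontal cortex in wild-type (WT) mice, with both tissues taken from the same animals. Samples were chosen by their labels alone, which gave 8 WT hypothalamus arrays and 8 WT frontal cortex arrays from 8 mice, 16 of the 48 arrays of the series. Every mouse had been kept awake for 12 h across the light phase (sleep displacement in the labels), and no rested mice are part of the comparison, so each level given here is that of a sleep-deprived animal. The WT mice were adults on a C57BL/6 background, bred as 1 line from the conditional stock that also gave the knock-in mice, homozygous for the mouse Per3 gene and free of Cre. Their sex was not given in the labels. The knock-in mice, used here only to ask whether the tissue difference also held in other animals, carried a stretch of human PER3 within the mouse gene, with a variable repeat present 5 times (Per3 5/5, 8 mice) or 4 times (Per3 4/4, 8 mice). Whole blocks of tissue were dissected, so fewer cells of a type and less RNA per cell cannot be told apart.

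As background, the hypothalamus is a collection of small nuclei that control hormone release, feeding, temperature, daily timing and the switch between sleep and wakefulness, and many of its neurons signal with peptides. The frontal cortex is a layered sheet built mostly of glutamatergic projection neurons, with local GABAergic interneurons among them. Transcription factors that pattern the embryonic forebrain remain switched on in adult neurons of each region, and they serve as markers of regional identity. Prolonged wakefulness is known to raise immediate early genes and chaperones in the rodent brain, and the cortex is the tissue in which that rise has been studied most.

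Values are log2 signals relative to the 75th percentile of the array, so 0 marks a spot as bright as that percentile, and a tissue difference is hypothalamus minus frontal cortex within a mouse, averaged over 8 mice and given with its standard error (SE). The 75th percentile itself lay between 972.8 and 1462.6 intensity units in cortex and between 1206.3 and 1884.2 in hypothalamus. Between 29348 and 32166 probes per array were well above background in cortex and between 30252 and 32966 in hypothalamus, and no spot was saturated. The pair of arrays of each mouse lay on the same slide and was scanned on the same day. On every slide the hypothalamus lay at positions 1 and 3 and the cortex at positions 2 and 4, so tissue and slide position cannot be told apart.

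4 arrays stood apart and are named here because several results touch them. Hypothalamus replicate 8 carried pituitary transcripts: the mean of 8 pituitary markers was 4.13 on this array and between -3.57 and -2.68 on the other hypothalamus arrays, and growth hormone (Gh) reached 8.09 against a median of -4.87. Cortex replicate 3 carried the highest striatal signal, a mean of 1.85 over 11 markers against -0.44 to 0.99 on the other cortex arrays. Hypothalamus replicate 3 differed by more than 2-fold from the median of the other 7 arrays at 3608 of 30916 probes, where the other hypothalamus arrays differed at 350 to 1393. Among cortex arrays, replicate 1 differed from the median of the others at 1758 probes, 1482 of them higher, replicate 3 at 1487 and the remaining 6 at 567 to 825. Named genes whose difference moved by more than 1.5-fold when 1 of these 3 mice was left out are given with and without it, and the part of neighbouring tissue in other results was not tested.

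**Figure D1:**
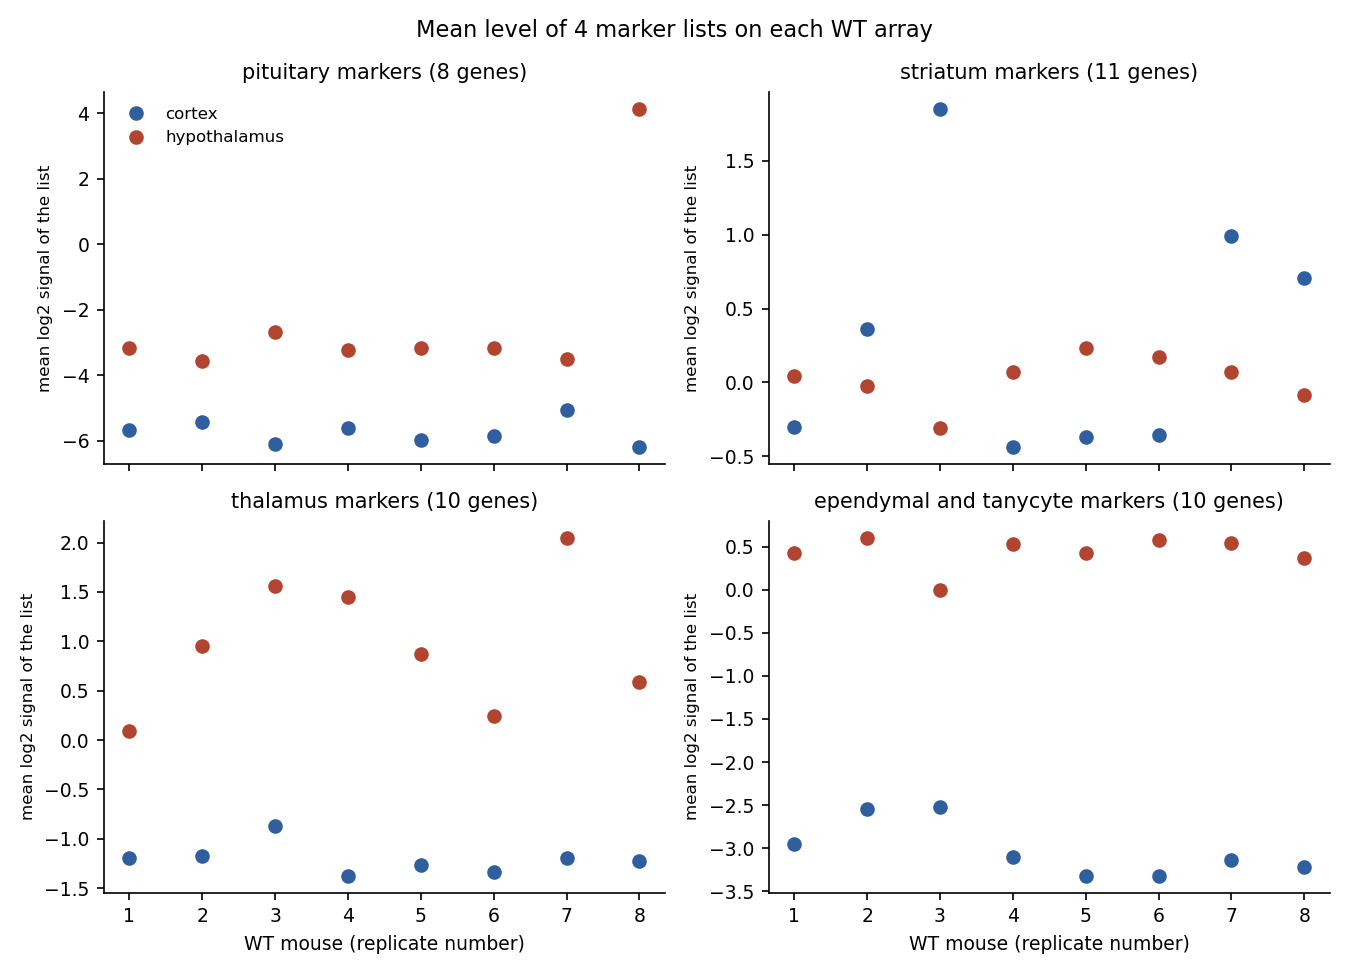
Mean log2 signal over the array's 75th percentile (vertical axis) of 4 marker lists on each WT array, by mouse (horizontal axis), with frontal cortex in blue and hypothalamus in red. The pituitary list reached 4.13 in hypothalamus replicate 8, the striatum list reached 1.85 in cortex replicate 3, and the thalamus list ran from 0.09 to 2.05 over the hypothalamus arrays.

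The tissues differed at most probes. Of 30916 probes tested, 9621 (31.1%) were higher in hypothalamus and 8247 (26.7%) were higher in cortex at an adjusted p under 0.05, and 2465 (7.97%) and 2391 (7.73%) of the probes also differed by at least 2-fold. Among the 28870 probes well above background in both tissues, 57.4% were called and 13.6% were called at 2-fold or more. Differences of 16-fold or more were found at 168 probes in favour of the hypothalamus and at 90 in favour of the cortex. Most differences were modest: the median size of a called difference was 0.62 on the log2 scale, beside a median SD of 0.30 between mice. Counted once per gene, 1572 of 15985 genes were higher in hypothalamus by at least 2-fold and 1216 in cortex. Centring each array on its median in place of the 75th percentile gave 7649 probes higher in hypothalamus and 9672 higher in cortex, so which tissue had more called probes depended on the scale. No probe called at 2-fold changed its direction in a setting in which it was tested.

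Among probes well above background in both tissues, the 10 genes most in favour of the hypothalamus were Avp, Pmch, Hcrt, Oxt, Cga, Ccdc153, Sytl4, Asb4, Igsf1 and Ak7, with differences from 10.62 down to 6.74. The first 4 of these encode neuropeptides. The 10 most in favour of the cortex were Slc17a7, Neurod6, Tbr1, Neurod2, Ankrd33b, Psrc1, Kcnh3, Epop, Krt12 and Mei1, with differences from -7.74 to -5.17. Slc17a7 encodes a glutamate transporter, and Neurod6, Tbr1 and Neurod2 are transcription factors of cortical projection neurons. Genes well above background in 1 tissue only can be given a bound, with each dark array set at the lowest signal it read well above background. Where some arrays of a tissue were dark for a gene, its fitted difference rests in part on signal at background and is not exact. Among genes dark on every cortex array, Fezf1 was at least 152-fold higher in hypothalamus, Ppp1r17 at least 74.9-fold, Cngb1 at least 46.2-fold, Nr0b1 at least 41.5-fold and Onecut3 at least 36.6-fold. Only 1 of the 2 tested probes of Onecut3 was called, and its bound comes from that probe. Among genes dark on every hypothalamus array, Ovol2 was at least 45.7-fold higher in cortex, Itprid1 at least 25.8-fold, Akr1c18 at least 22.7-fold and Hgf, a growth factor, at least 13-fold.

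**Figure D2:**
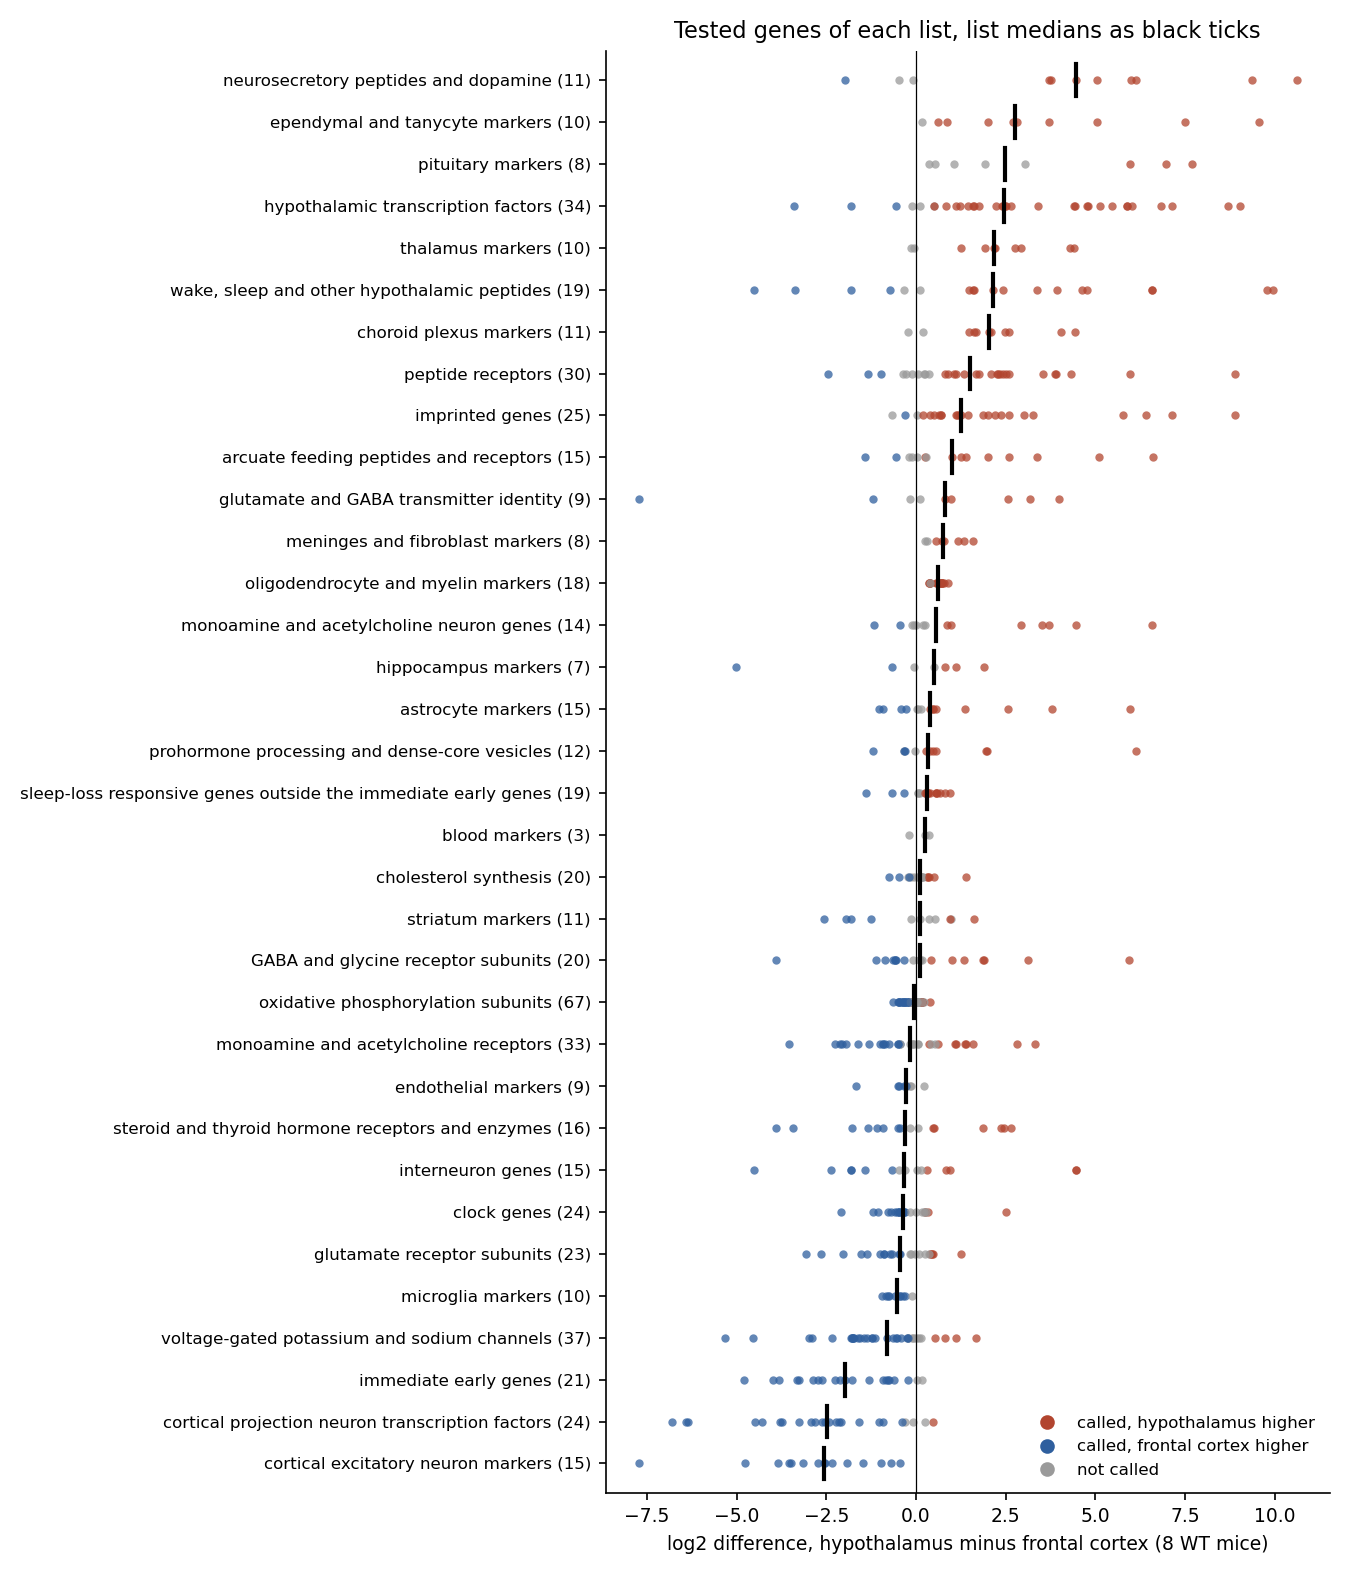
Log2 difference, hypothalamus minus frontal cortex (horizontal axis), of every tested gene of the gene lists, 1 point per gene, with the number tested in parentheses and the list median as a black tick. Medians ran from -2.55 for cortical excitatory neuron markers to 4.47 for neurosecretory peptides, beside 0.03 over all probes tested.

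The gene lists held 640 different genes, of which 602 were tested. A further 11 were not well above background in enough arrays of either tissue, among them Oxtr, Oprd1, Otp, Nr4a3 and Tbx19. No probe could be named for 27 more, among them Crh, Pdyn, Tac2, Rax, H19, Vgf and Pou1f1, so these genes have no value here. Lists overlap, and a gene of 2 lists is counted in both.

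The promoters of 3 genes with very large differences toward the hypothalamus and 1 toward the cortex are printed first, to show what lies at the start of the genes whose values follow. Each runs 5′ to 3′ on the strand of its gene, from 250 bases before the start to 50 after it, in RefSeq annotation of mouse build GRCm38.p6. Capitals mark matches, on either strand and without regard to overlap, to TATAAA (the TATA box), CACGTG (an E-box bound by CLOCK and BMAL1), TGACGTCA (a cAMP response element) or GGGCGG (a GC box).
Avp, chr2:130582539-130582838, minus strand: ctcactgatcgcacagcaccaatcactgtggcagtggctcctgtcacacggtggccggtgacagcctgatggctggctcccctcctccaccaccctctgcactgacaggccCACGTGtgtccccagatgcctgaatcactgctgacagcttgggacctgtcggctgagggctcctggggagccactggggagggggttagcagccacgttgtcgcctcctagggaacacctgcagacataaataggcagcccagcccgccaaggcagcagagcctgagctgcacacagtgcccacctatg
Oxt, chr2:130575919-130576218, plus strand: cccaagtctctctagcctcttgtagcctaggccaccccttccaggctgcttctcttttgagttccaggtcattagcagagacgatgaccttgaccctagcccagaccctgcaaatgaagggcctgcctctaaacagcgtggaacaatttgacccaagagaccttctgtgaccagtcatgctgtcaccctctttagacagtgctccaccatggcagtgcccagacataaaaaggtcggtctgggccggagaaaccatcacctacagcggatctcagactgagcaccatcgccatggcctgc
Hcrt, chr11:100762882-100763181, minus strand: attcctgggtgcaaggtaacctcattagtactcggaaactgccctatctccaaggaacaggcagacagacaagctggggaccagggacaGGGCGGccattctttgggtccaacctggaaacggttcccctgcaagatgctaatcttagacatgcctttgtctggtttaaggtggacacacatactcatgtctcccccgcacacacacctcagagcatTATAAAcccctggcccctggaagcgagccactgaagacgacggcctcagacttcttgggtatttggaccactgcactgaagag
Slc17a7, chr7:45163671-45163970, plus strand: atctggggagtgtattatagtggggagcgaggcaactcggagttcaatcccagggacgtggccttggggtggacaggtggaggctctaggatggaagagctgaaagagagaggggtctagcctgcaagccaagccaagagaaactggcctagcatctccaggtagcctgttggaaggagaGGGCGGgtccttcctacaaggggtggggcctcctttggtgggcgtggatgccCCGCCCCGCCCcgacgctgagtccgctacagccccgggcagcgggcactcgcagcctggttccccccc
The Avp window held CACGTG at position -139 from the start, that of Hcrt held TATAAA at position -33 and 1 GGGCGG, and that of Slc17a7 held GGGCGG 3 times, 2 of them overlapping on the opposite strand. The Oxt window held none of the 4 motifs. Avp and Oxt are neighbours on chromosome 2 that are read toward each other, with starts 6419 bases apart. Among genes with a promoter in the table, GGGCGG was present in 53.1% of 1224 genes higher in hypothalamus by at least 2-fold, in 64.3% of 917 higher in cortex and in 62.0% of 12699 tested genes. TATAAA was present in 14%, 13.2% and 11% of the same groups, CACGTG in 8.74%, 9.92% and 10.8%, and TGACGTCA in 2.61%, 2.29% and 3.20%. The shares describe these windows and were not tested.

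Transcription factors that mark cortical projection neurons were higher in cortex almost throughout. Of 24 such factors, all well above background in both tissues, 20 were higher in cortex, 1 was higher in hypothalamus and 3 were not called, with a median difference of -2.47. Neurod6, a basic helix-loop-helix factor of cortical excitatory neurons, lay between 0.74 and 2.31 (median 2.05) in cortex and between -5.78 and -4.29 (median -4.72) in hypothalamus, a difference of -6.80 ± 0.23 (adjusted p = 1.97e-08). Tbr1, a T-box factor of deep-layer neurons, lay between 1.43 and 1.86 (median 1.53) in cortex and between -5.91 and -3.93 (median -4.77) in hypothalamus, a difference of -6.42 ± 0.25. The tissues did not overlap for either gene. Neurod2 differed by -6.37 ± 0.36, Mef2c by -4.30 ± 0.13 and Fezf2 of corticospinal neurons by -3.79 ± 0.15. Foxp2 was the only member higher in hypothalamus, by 0.47 ± 0.11.

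All 15 tested markers of cortical excitatory neurons were higher in cortex, 14 of them above background in both tissues, with a median difference of -2.55. Slc17a7, which encodes the vesicular glutamate transporter VGLUT1, lay between 2.25 and 2.82 (median 2.55) in cortex and between -9.15 and -3.15 (median -4.95) in hypothalamus. The cortex arrays were tight and the hypothalamus arrays wide, and the tissues did not overlap. The difference was -7.74 ± 0.60 (adjusted p = 3.28e-06). Itpka, a kinase of dendritic spines, differed by -4.76 ± 0.16, Ptk2b by -3.86 ± 0.13, neurogranin (Nrgn) by -3.49 ± 0.11 and Camk2a, the alpha subunit of calcium/calmodulin kinase II, by -3.15 ± 0.22.

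Factors of the hypothalamic primordium had the opposite pattern. Of 37 listed, 34 were tested: 28 were higher in hypothalamus, 3 in cortex and 3 were not called. 12 of the 34 were tested only because they were well above background in hypothalamus, which fixes their direction in advance. Among the 22 well above background in both tissues, 16 were higher in hypothalamus and 3 in cortex, with a median of 1.52. Fezf1, needed for the ventromedial nucleus, was above background on 8 of 8 hypothalamus arrays and on 0 of 8 cortex arrays. Six6 was at least 17.4-fold higher in hypothalamus, Irx5 at least 12.4-fold, Sim1, which specifies paraventricular neurons, at least 10.9-fold and Nhlh2 at least 10.4-fold, all 4 with 0 cortex arrays above background. Foxb1, a factor of the mammillary bodies, lay between -0.46 and 1.18 (median 0.74) in hypothalamus and was above background on 1 cortex array. With the 7 dark cortex arrays set at their floor it was at least 178-fold higher in hypothalamus. Hmx3 lay between -0.03 and 1.23 (median 0.68) in hypothalamus and was above background on 4 cortex arrays, with a difference of 7.14 ± 0.12.

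Some of these factors spread widely in cortex, with 1 array high. Nkx2-1, the factor of the ventral forebrain, lay between -8.62 and -3.98 (median -8.32) in cortex and between -2.12 and -0.24 (median -0.75) in hypothalamus, and the highest of the cortex values, 2 of which were above background, came from replicate 3. Its difference was 6.82 ± 0.64 and 7.53 without that mouse. Lhx8, a factor of cholinergic neurons of the basal forebrain, lay between -8.69 and 0.10 (median -6.23) in cortex and between -3.76 and -1.77 (median -2.69) in hypothalamus, so the tissues overlapped. Its difference was 2.66 ± 1.01 (adjusted p = 0.0453) and 3.55 (adjusted p = 0.00319) without replicate 3, whose cortex array held the highest value, and it was called in only 2 of the 8 fits that left out 1 mouse. Among the listed factors that went the other way, Meis2, a homeobox factor also found in striatum and cortex, differed by -3.41 ± 0.10 and Lhx6, a factor of cortical interneurons, by -1.82 ± 0.10.

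**Figure D3:**
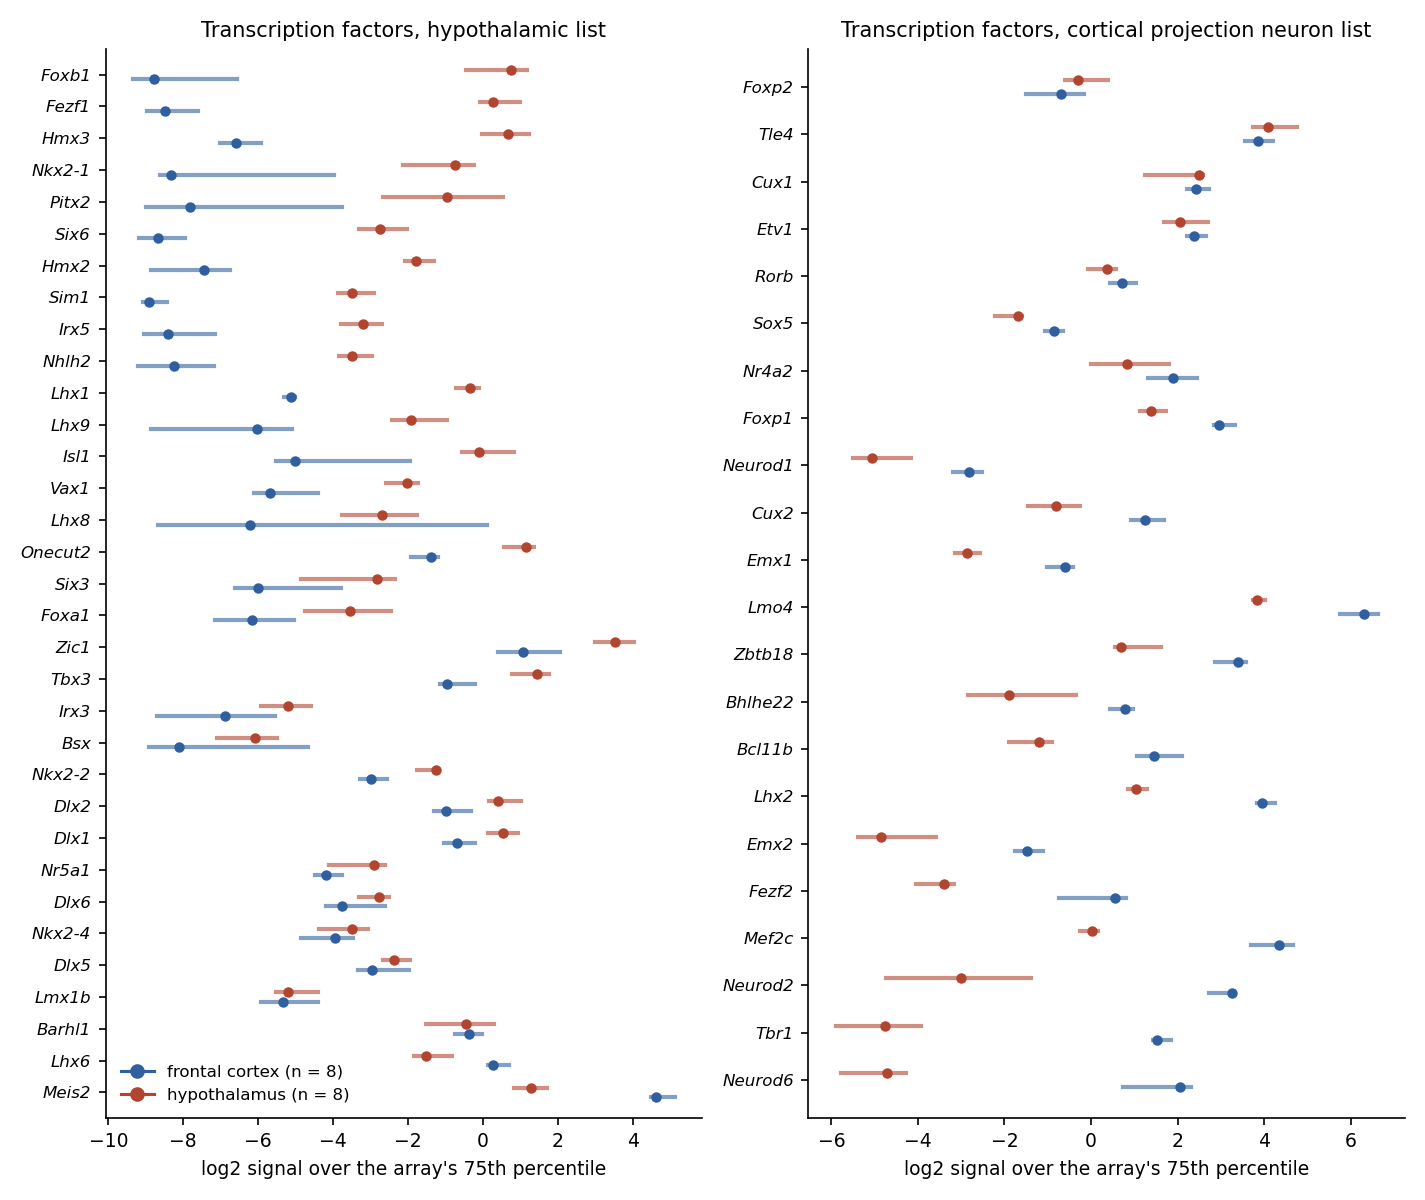
Lowest to highest value (bars) and median (points) of 8 frontal cortex arrays (blue) and 8 hypothalamus arrays (red) for transcription factors of the hypothalamic list (left) and the cortical projection neuron list (right), as log2 signal over the array's 75th percentile (horizontal axis). Neurod6, Tbr1 and Fezf1 did not overlap between tissues, and Lhx8 did.

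Neurosecretory genes held the largest single difference of the data. Of 11 tested, 8 were higher in hypothalamus, 1 in cortex and 2 were not called, and the median difference was 4.47. Over the 10 well above background in both tissues these counts were 7 and 1 and the median was 4.12. Avp, which encodes vasopressin, lay between -5.34 and -4.50 (median -4.95) in cortex and between 5.32 and 6.22 (median 5.68) in hypothalamus. Every mouse was higher in hypothalamus and the tissues did not overlap. The mean difference was 10.62 ± 0.13 or 1573-fold (adjusted p = 1.4e-10). Oxt, which encodes oxytocin, lay between -3.34 and -2.83 (median -3.09) in cortex and between 5.24 and 6.70 (median 6.40) in hypothalamus, a difference of 9.38 ± 0.13 or 667-fold. The releasing hormones followed. Ghrh (growth hormone releasing hormone) lay between -4.08 and -3.30 (median -3.70) in cortex and between 1.15 and 3.18 (median 2.59) in hypothalamus, a difference of 6.15 ± 0.23, and Trh (thyrotropin releasing hormone) differed by 6.0 ± 0.21. Gnrh1, the reproductive releasing hormone, differed by 3.76 ± 0.35. Ucn3, a urocortin, was above background on 0 of 8 cortex arrays and at least 7.85-fold higher in hypothalamus. Of the dopamine genes on the list, Th (tyrosine hydroxylase) differed by 3.71 ± 0.26 and Slc6a3 (the dopamine transporter) by 4.47 ± 0.48. Which dopamine neurons these transcripts came from was not tested.

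Some neurosecretory peptide genes did not follow. Somatostatin (Sst), an inhibitor of growth hormone release and a marker of cortical interneurons, lay between 4.81 and 5.45 (median 4.89) in cortex and between 3.13 and 4.98 (median 4.77) in hypothalamus. The ranges overlapped and the difference of -0.47 ± 0.19 was not called (adjusted p = 0.0578). Ucn, the founding urocortin, was higher in cortex (difference -1.98 ± 0.41), a call that was lost under normexp background correction.

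Among 19 tested peptide and transmitter genes of wake, sleep and other hypothalamic neurons, 13 were higher in hypothalamus, 4 in cortex and 2 were not called, with a median of 2.14. Over the 17 well above background in both tissues these counts were 11 and 4 and the median was 1.63. Hcrt encodes the orexins, which hold the brain awake. It lay between -3.82 and -3.08 (median -3.38) in cortex and between 5.87 and 7.12 (median 6.40) in hypothalamus, a difference of 9.80 ± 0.16 or 893-fold (adjusted p = 4.89e-10). Pmch encodes melanin-concentrating hormone, made by neighbouring lateral hypothalamic cells that are active in sleep. It lay between -4.26 and -3.58 (median -3.90) in cortex and between 5.32 and 6.70 (median 6.17) in hypothalamus, a difference of 9.96 ± 0.17. Hdc, the histamine-forming enzyme of the wake-active tuberomammillary nucleus, lay between -4.24 and -3.18 (median -3.77) in cortex and between 2.57 and 3.28 (median 2.78) in hypothalamus, a difference of 6.59 ± 0.17. None of these genes overlapped between tissues. Gal (galanin), a peptide of sleep-active preoptic neurons, differed by 4.78 ± 0.14, and Npvf was at least 35.6-fold higher in hypothalamus. Nts (neurotensin) lay between -3.98 and 2.34 (median -3.00) in cortex, where replicate 3 was highest, and between 1.92 and 3.10 (median 2.77) in hypothalamus, and its difference was 4.64 ± 0.77 and 5.22 without that mouse.

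3 of the 4 genes of that list that were higher in cortex are peptides that cortical neurons also make. Cck (cholecystokinin) lay between 7.08 and 7.68 (median 7.54) in cortex and between 3.26 and 5.33 (median 4.00) in hypothalamus, a difference of -3.39 ± 0.24. Cort (cortistatin), a sleep-related relative of somatostatin, differed by -4.51 ± 0.24. Vip, the peptide of the ventral suprachiasmatic nucleus and of a cortical interneuron class, lay between 1.95 and 2.61 (median 2.40) in cortex and between 0.27 and 0.96 (median 0.46) in hypothalamus, a difference of -1.81 ± 0.10. The last, Qrfp, an appetite-raising peptide, differed by -0.73 ± 0.21, a call that was lost under normexp background correction and on scan day 3 alone.

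**Figure D4:**
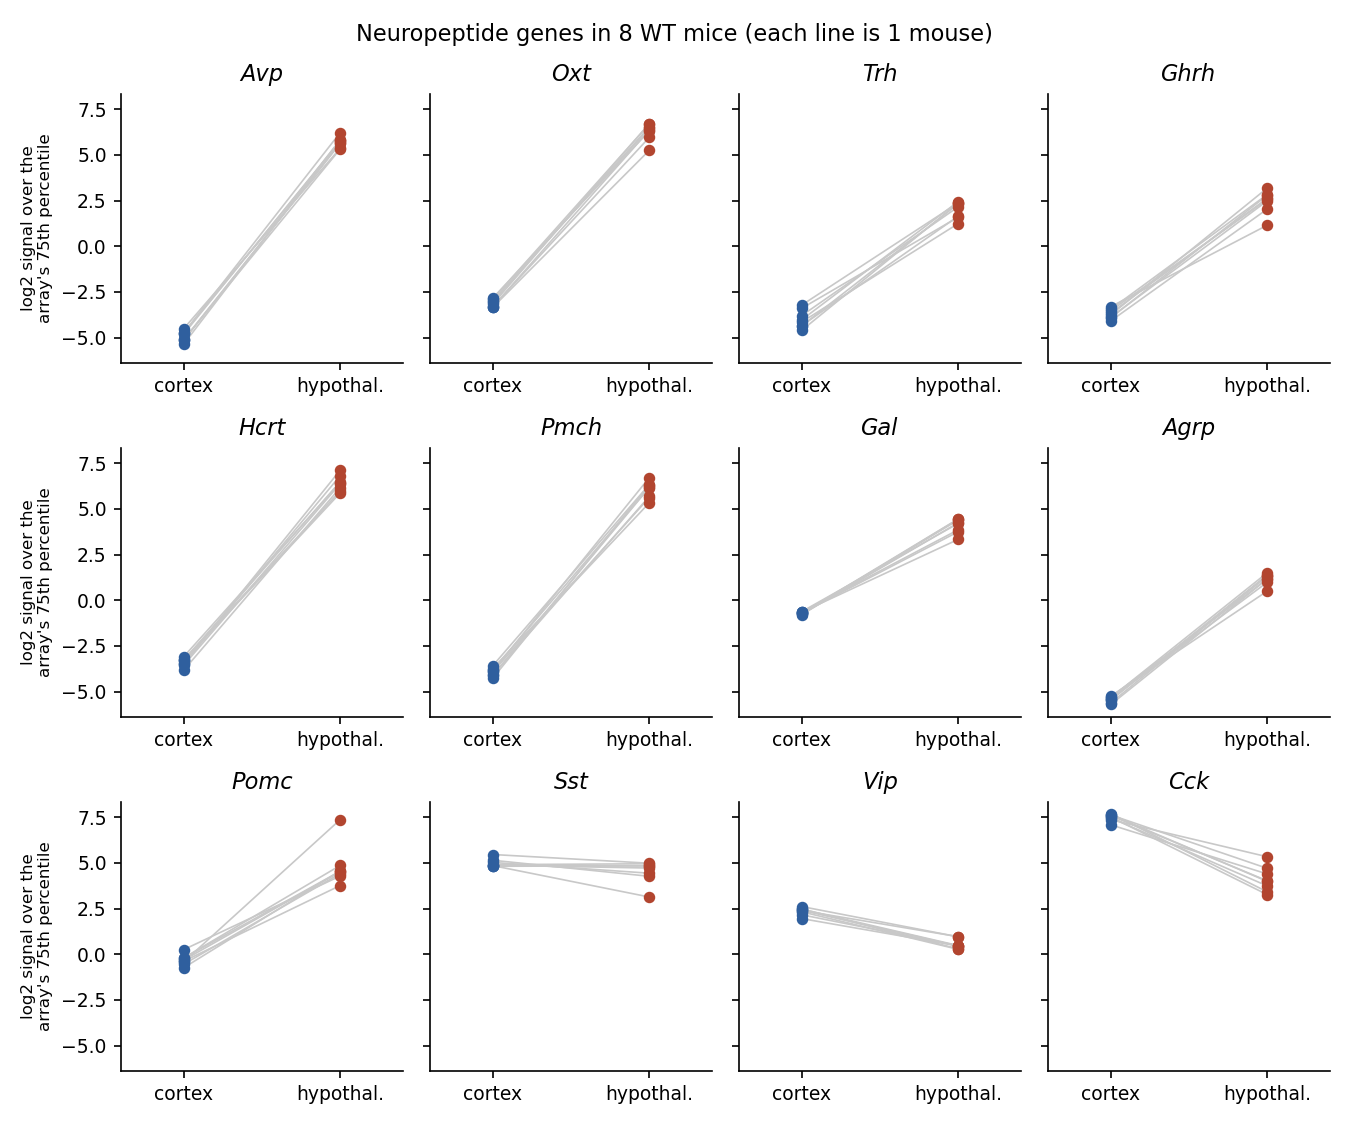
Log2 signal over the array's 75th percentile (vertical axis) of 12 neuropeptide genes in frontal cortex (blue) and hypothalamus (red), 1 line per WT mouse. Avp, Oxt, Hcrt and Pmch ran from below -2 in cortex to above 5 in hypothalamus in every mouse, Vip and Cck ran the other way, and Pomc was highest in hypothalamus replicate 8 at 7.36.

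Receptors of these peptides were tested for 30 genes, of which 20 were higher in hypothalamus, 3 in cortex and 7 were not called, with a median of 1.51. Among the 25 above background in both tissues, 15 were higher in hypothalamus and 3 in cortex (median 1.05). Galr1, a galanin receptor, was at least 22.1-fold higher in hypothalamus. Calcr, the calcitonin and amylin receptor, lay between -9.08 and -2.27 (median -7.59) in cortex, with its highest value on replicate 3 and 2 arrays above background, and between 1.51 and 2.34 (median 1.97) in hypothalamus, a difference of 8.90 ± 0.77 and of 9.63 without that mouse. Tacr3, the neurokinin B receptor, differed by 4.32 ± 0.51, Vipr2, a VIP receptor of the suprachiasmatic nucleus, by 3.91 ± 0.15 and Avpr1a, a vasopressin receptor, by 3.87 ± 0.25. Both orexin receptors were higher in hypothalamus, Hcrtr2 by 1.67 ± 0.11 and Hcrtr1 by 0.90 ± 0.09. Cckbr, the cholecystokinin B receptor, differed by -2.46 ± 0.12 in favour of the cortex, as did Crhr1, the main receptor of corticotropin releasing hormone, by -1.34 ± 0.10 and Vipr1 by -0.97 ± 0.14. Crhr2, the other receptor of CRH, was higher in hypothalamus by 2.60 ± 0.13, so the pairs Crhr1 and Crhr2, and Vipr1 and Vipr2, lay on opposite sides.

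Feeding genes of the arcuate nucleus were less uniform. Of 15 tested, 9 were higher in hypothalamus, 2 in cortex and 4 were not called, with a median of 1.0 (8 and 2 of the 14 in both tissues, median 0.76). Agrp, the appetite-raising antagonist of melanocortin receptors, lay between -5.70 and -5.24 (median -5.41) in cortex and between 0.50 and 1.5 (median 1.23) in hypothalamus, a difference of 6.60 ± 0.13 (adjusted p = 1.36e-09). Pomc, the precursor of melanocortins that is also abundant in pituitary, lay between -0.74 and 0.26 (median -0.35) in cortex and between 3.76 and 7.36 (median 4.53) in hypothalamus, with the highest value on the array that carried pituitary transcripts. Its difference was 5.10 ± 0.36 and 4.72 without that mouse. Npy, made with Agrp in arcuate neurons and by many cortical interneurons, was higher in cortex, between 3.12 and 3.88 (median 3.55), than in hypothalamus, between 1.29 and 2.49 (median 2.26), a difference of -1.43 ± 0.13. The receptors for growth hormone (Ghr, 2.01 ± 0.06), leptin (Lepr, 1.26 ± 0.13) and NPY at Npy2r (2.59 ± 0.24) were higher in hypothalamus, and Npy1r was higher in cortex (-0.57 ± 0.17). The Lepr call was lost under normexp background correction, and that of Npy1r on either scan day alone.

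Genes that cut and pack peptides lay on both sides. Of 12 tested, 7 were higher in hypothalamus, 3 in cortex and 2 were not called, and the median difference was 0.33. Without replicate 8, whose hypothalamus array carried pituitary transcripts, 5 were higher in hypothalamus and 4 in cortex, with a median of 0.3. Baiap3, which acts in dense-core vesicle traffic, lay between -3.12 and -0.01 (median -2.38) in cortex and between 3.57 and 4.29 (median 4.02) in hypothalamus, a difference of 6.12 ± 0.36. The convertases split: Pcsk1 was higher in hypothalamus by 1.96 ± 0.20 (1.77 without replicate 8, whose hypothalamus array was highest) and Pcsk2 in cortex (difference -1.19 ± 0.09). Scg2 (secretogranin II) differed by 1.97 ± 0.15, while the carboxypeptidase Cpe differed by -0.33 ± 0.07 in favour of the cortex. The Cpe call was lost on either scan day alone.

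The vesicular glutamate transporters lay on opposite sides. Slc17a6, which encodes VGLUT2, lay between 0.10 and 1.05 (median 0.31) in cortex and between 4.19 and 4.65 (median 4.44) in hypothalamus, a difference of 3.98 ± 0.11, opposite in sign to that of Slc17a7. Slc17a8 (VGLUT3) was also higher in hypothalamus, by 3.18 ± 0.07. Of the GABA genes, Gad2, a GABA-forming enzyme, lay between 2.96 and 4.01 (median 3.26) in cortex and between 3.97 and 4.68 (median 4.43) in hypothalamus, a difference of 0.99 ± 0.19, and Slc32a1, the vesicular GABA transporter, differed by 0.81 ± 0.10. Of the 9 genes tested in this group, 5 were higher in hypothalamus, 2 in cortex and 2 were not called, with a median of 0.81.

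Interneuron genes divided, with 5 of 15 higher in hypothalamus, 6 in cortex and 4 not called (median -0.32). Among the 14 well above background in both tissues, 4 were higher in hypothalamus and 6 in cortex (median -0.39). Pvalb (parvalbumin), the marker of fast-spiking basket cells, lay between -0.02 and 0.93 (median 0.48) in cortex and between -2.74 and -1.10 (median -1.79) in hypothalamus, a difference of -2.38 ± 0.23, and Reln (reelin) differed by -0.67 ± 0.11. Calb2 (calretinin) went the other way, between -2.64 and -1.24 (median -2.24) in cortex and between 1.92 and 2.61 (median 2.38) in hypothalamus, a difference of 4.46 ± 0.14. Chodl, a marker of sleep-active nitric oxide neurons in cortex, was above background on 1 cortex array and at least 17.7-fold higher in hypothalamus, and Nos1, the neuronal nitric oxide synthase, differed by 0.95 ± 0.09.

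Of 14 genes of monoamine and acetylcholine neurons, 7 were higher in hypothalamus, 2 in cortex and 5 were not called (median 0.56). Beside Hdc, Slc6a3 and Th, the vesicular monoamine transporter Slc18a2 differed by 2.92 ± 0.09 and the decarboxylase Ddc by 3.52 ± 0.13. Tph2, the serotonin-forming enzyme, was higher in cortex (difference -1.16 ± 0.08), but it was not called under normexp background correction.

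Receptors of fast transmitters and monoamines were divided between the tissues by subunit. Of 23 glutamate receptor genes, 12 were higher in cortex, 5 in hypothalamus and 6 were not called (median -0.45). The NMDA receptor subunits Grin2a and Grin2b led the cortical side: Grin2a lay between -0.67 and 0.23 (median -0.07) in cortex and between -3.71 and -2.61 (median -3.17) in hypothalamus, a difference of -3.07 ± 0.15, and Grin2b differed by -2.65 ± 0.12. The AMPA subunit Gria3 differed by -2.04 ± 0.10, and the kainate subunit Grik1 was higher in hypothalamus by 1.25 ± 0.13. Of 20 GABA and glycine receptor genes, 7 were higher in hypothalamus, 8 in cortex and 5 were not called (median 0.10). Of the 7, 2 were tested only because of their signal in hypothalamus, with fewer than 6 cortex arrays above background. Gabrd, the delta subunit of extrasynaptic receptors, lay between 3.54 and 3.98 (median 3.74) in cortex and between -2.32 and 2.09 (median -0.32) in hypothalamus, a difference of -3.90 ± 0.51. Ranked by Gabrd, the hypothalamus arrays ran from replicate 7 down to replicate 1 in the same order as by the mean of the thalamic markers given further on, and the part of thalamic tissue in this difference was not tested. Gabrq (theta) lay between -2.82 and -1.30 (median -1.56) in hypothalamus, was above background on 1 cortex array and was at least 32.7-fold higher in hypothalamus. The glycine receptor subunits Glra1, Glra2 and Glra3 were all higher in hypothalamus, by 3.11 ± 0.22, 1.35 ± 0.14 and 1.89 ± 0.17, the first with 5 cortex arrays above background.

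Of 33 monoamine and acetylcholine receptor genes, 15 were higher in cortex, 9 in hypothalamus and 9 were not called (median -0.16). Among the 31 well above background in both tissues, 14 were higher in cortex and 8 in hypothalamus. The nicotinic subunit Chrna5, known from deep-layer cortical neurons, lay between -4.64 and -3.14 (median -3.35) in cortex and between -7.98 and -6.67 (median -7.17) in hypothalamus, where 3 arrays were above background, and the fitted difference was -3.55 ± 0.25. The serotonin receptor Htr2a differed by -2.11 ± 0.16, the beta adrenoceptor Adrb1 by -2.06 ± 0.18 and the dopamine receptor Drd4 by -2.25 ± 0.32. On the other side the muscarinic receptor Chrm5 differed by 3.32 ± 0.22, Htr7, a serotonin receptor of the suprachiasmatic nucleus, by 1.60 ± 0.12, and the nicotinic subunit Chrna3 was at least 3.31-fold higher in hypothalamus. Probes of Chrm1 and of Chrna4 were called in opposite directions, so no direction is given for these 2 genes.

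Voltage-gated potassium and sodium channels were mostly higher in cortex. Of 37 tested, 25 were higher in cortex, 4 in hypothalamus and 8 were not called, with a median of -0.82. Kcnh3, an ether-a-go-go channel of the forebrain, lay between -0.06 and 0.16 (median 0.02) in cortex and between -5.99 and -4.48 (median -5.22) in hypothalamus, a difference of -5.31 ± 0.17 (adjusted p = 1.19e-08). The silent subunits Kcnv1 and Kcns1 differed by -4.54 ± 0.10 and -2.97 ± 0.09, and Kcnq5, an M-current channel, by -2.90 ± 0.09. Kcna2, a Kv1 channel, differed by -0.82 ± 0.12. The sodium channel subunit Scn8a differed by -1.55 ± 0.09. Kcna5 was higher in hypothalamus by 1.69 ± 0.27 and Kcnh2 by 1.11 ± 0.08.

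Immediate early genes, the transcripts that rise within minutes of neuronal activity, were higher in cortex at the end of the 12 h of wakefulness. Of 21 tested, 19 were higher in cortex and 2 were not called, and the median difference was -1.98 beside 0.03 over all probes. Among the 20 well above background in both tissues, 18 were higher in cortex (median -1.87). Arc, an effector of synaptic scaling, lay between 3.82 and 5.20 (median 4.41) in cortex and between 0.12 and 0.76 (median 0.40) in hypothalamus, a difference of -3.99 ± 0.19 or 15.9-fold (adjusted p = 1.29e-07). Egr1, a zinc finger factor, lay between 3.34 and 4.46 (median 3.90) in cortex and between 0.20 and 1.15 (median 0.61) in hypothalamus, a difference of -3.26 ± 0.12. Ptgs2, the inducible cyclooxygenase, lay between -1.06 and -0.12 (median -0.60) in cortex and between -6.24 and -4.79 (median -5.35) in hypothalamus, a difference of -4.80 ± 0.17, the list's largest. All 3 genes were higher in cortex in every mouse with no overlap of the tissues. Egr3 was well above background in cortex only, at least 4.62-fold higher there, a call that was lost under normexp background correction.

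Members of the group were unequal. Homer1, a postsynaptic scaffold with a short form induced by activity, lay between 1.64 and 2.05 (median 1.83) in cortex and between -1.19 and -0.85 (median -0.97) in hypothalamus, a difference of -2.86 ± 0.07. The paper describes Homer1 probes for both ends of the transcripts, and which forms the probe used here reads was not tested. Npas4 differed by -2.63 ± 0.22, Nr4a1 by -2.25 ± 0.12, Fosb by -2.12 ± 0.11 and Junb by -1.98 ± 0.13. Fos itself lay between -0.99 and 0.49 (median -0.30) in cortex and between -1.48 and -0.47 (median -0.85) in hypothalamus, ranges that overlapped, and differed by only -0.62 ± 0.14. It was not called on scan day 2 alone. Bdnf, a neurotrophin, differed by -0.83 ± 0.13. Cortical arrays also spread more in these genes: the mean of the list ran from 0.17 to 1.04 over cortex arrays and from -1.51 to -1.18 over hypothalamus arrays. With no rested mice, a level that differs between tissues at rest and one that follows from wakefulness cannot be told apart.

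Other genes known to respond to sleep loss leaned toward the hypothalamus. Of 19 tested, 12 were higher in hypothalamus, 3 in cortex and 4 were not called, and the median was 0.32. Hspa5, the endoplasmic reticulum chaperone BiP, lay between 4.00 and 4.28 (median 4.14) in cortex and between 4.29 and 5.13 (median 4.66) in hypothalamus, a difference of 0.55 ± 0.10. Pdia4, a disulfide isomerase, differed by 0.66 ± 0.13, Tsc22d3, a glucocorticoid-induced gene, by 0.60 ± 0.13 and Plin4, a lipid droplet protein, by 0.95 ± 0.11. Hspa5 and Pdia4 were not called on scan day 3 alone. Calr, another endoplasmic reticulum chaperone, went the other way in every mouse. It lay between 3.83 and 4.15 in cortex and between 2.96 and 3.87 in hypothalamus. The cold-inducible RNA-binding genes split, with Cirbp higher in hypothalamus by 0.80 ± 0.07 and Rbm3 higher in cortex (difference -0.68 ± 0.11). Cdkn1a, a cell cycle inhibitor, was higher in cortex (difference -1.39 ± 0.12).

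Clock genes were mostly higher in cortex: of 24 tested, 15 were higher in cortex, 3 in hypothalamus and 6 were not called, with a median of -0.35. Npas2, the forebrain partner of BMAL1, lay between -3.27 and -2.68 (median -2.90) in cortex and between -5.61 and -4.48 (median -5.06) in hypothalamus, a difference of -2.08 ± 0.09 (adjusted p = 8.76e-08). The tissues did not overlap. Bhlhe40, a repressor that activity also induces, differed by -1.20 ± 0.10, and Hlf, an output factor, by -1.06 ± 0.13. Bhlhe41, a relative of Bhlhe40, was higher in hypothalamus by 0.33 ± 0.08 and Csnk1d, a kinase of the PER proteins, by 0.25 ± 0.07. Both calls were lost on either scan day alone, that of Bhlhe41 also under normexp background correction and that of Csnk1d under median centring. The highest difference of the list, of a gene not named here, was 2.51. Of the core loop, Bmal1 differed by -0.49 ± 0.07, Clock by -0.31 ± 0.09, Per1 by -0.52 ± 0.12, Per2 by -0.35 ± 0.08 and Cry2 by -0.77 ± 0.05. Clock and Per2 were not called on either scan day alone, nor Per1 on scan day 2 alone. Brains were collected at the end of the wakefulness, so rhythmic genes were read at 1 time of day. Per3, the gene altered in the knock-in mice and intact in these animals, lay between -3.83 and -3.13 (median -3.43) in cortex and between -3.82 and -3.38 (median -3.58) in hypothalamus. Its difference of -0.16 ± 0.10 was not called (adjusted p = 0.196).

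**Figure D5:**
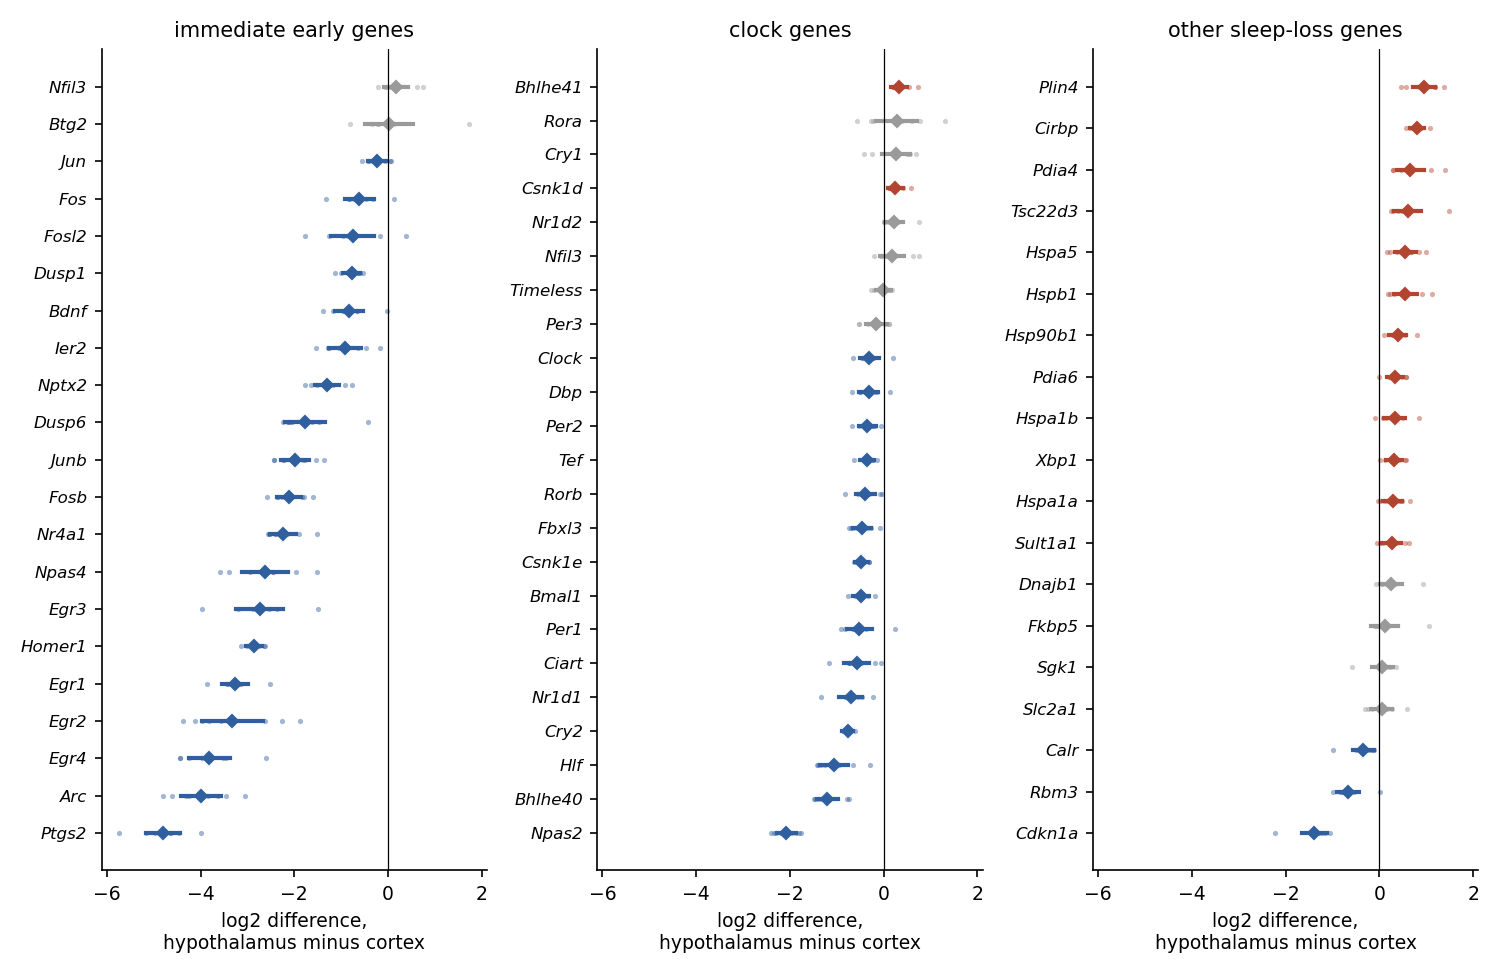
Log2 difference, hypothalamus minus frontal cortex (horizontal axis), for tested immediate early genes (left), clock genes (middle) and other sleep-loss genes (right), with 1 small point per WT mouse, the mean as a diamond and its 95% confidence interval as a bar. Red and blue mark genes called higher in hypothalamus or cortex and grey those not called. Ptgs2, Arc and Egr4 lay furthest toward the cortex, and Fos at -0.62 lay near the middle.

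Hormone genes split by hormone. Of 16 steroid and thyroid receptors and enzymes, 6 were higher in hypothalamus, 8 in cortex and 2 were not called (median -0.31). Of the 6, 2 were tested only because of their signal in hypothalamus, with fewer than 6 cortex arrays above background. The estrogen receptor Esr1 lay between -4.21 and -3.52 (median -3.80) in cortex and between -2.11 and -0.08 (median -1.54) in hypothalamus, a difference of 2.37 ± 0.22 (2.18 without replicate 8, whose hypothalamus array was highest). Esr2 was at least 2.02-fold higher in hypothalamus, and aromatase (Cyp19a1), which forms estrogen in brain, differed by 1.87 ± 0.19. The Esr2 call was lost under normexp background correction. The thyroid hormone genes of the list were higher in cortex: the activating deiodinase Dio2 lay between 3.46 and 4.05 (median 3.97) in cortex and between 0.09 and 1.13 (median 0.31) in hypothalamus, a difference of -3.44 ± 0.16, and the receptors Thra and Thrb differed by -1.33 ± 0.06 and -1.09 ± 0.08. Crym, a thyroid hormone binding protein, differed by -3.90 ± 0.18.

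Imprinted genes, which are expressed from 1 parental copy, were mostly higher in hypothalamus. Of 25 tested, 22 were higher in hypothalamus, 1 in cortex and 2 were not called, with a median of 1.25. Of the 22, 1 was tested only because of its signal in hypothalamus, with fewer than 6 cortex arrays above background. Asb4, found in arcuate neurons, lay between -4.61 and -3.40 (median -4.32) in cortex and between 2.60 and 3.30 (median 2.95) in hypothalamus, a difference of 7.15 ± 0.16. Magel2, a gene of the Prader-Willi region, lay between -4.24 and -2.75 (median -3.89) in cortex and between 1.74 and 2.33 (median 1.96) in hypothalamus, a difference of 5.78 ± 0.21. Its neighbour Ndn differed by 2.20 ± 0.11, while Snrpn of the same region was higher in cortex (difference -0.32 ± 0.08). The Snrpn call was lost on either scan day alone. Dlk1, also abundant in pituitary, differed by 6.43 ± 0.59 and by 5.96 without replicate 8. Peg10, Nnat and Grb10 differed by 3.28 ± 0.37, 3.01 ± 0.26 and 2.61 ± 0.09. The mean of the list was 1.12 in cortex replicate 3 and between 0.44 and 0.71 on the other cortex arrays.

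Among glia, myelin genes were higher in hypothalamus by a small and even amount. Of 18 tested, 16 were higher in hypothalamus and 2 were not called, with a median of 0.61. Trf (transferrin) lay between 1.41 and 2.77 (median 1.96) in cortex and between 2.58 and 3.54 (median 2.81) in hypothalamus, a difference of 0.89 ± 0.11, and Ugt8a, an enzyme of myelin lipid synthesis, differed by 0.78 ± 0.08. Of 15 astrocyte genes, 8 were higher in hypothalamus, 4 in cortex and 3 were not called (median 0.39). Agt, which encodes angiotensinogen, lay between -1.25 and 0.85 (median -0.90) in cortex and between 4.91 and 5.50 (median 5.27) in hypothalamus, a difference of 5.97 ± 0.19, and the GABA transporter Slc6a11 differed by 2.58 ± 0.09. Gfap differed by 1.36 ± 0.21. The glutamate transporter Slc1a2 was higher in cortex (difference -1.02 ± 0.08), so called astrocyte genes lay on both sides. Of 10 microglia genes, 9 were higher in cortex and 1 was not called (median -0.53), led by P2ry12, the purine receptor of resting microglia, at -0.95 ± 0.10. Of 9 endothelial genes, 5 were higher in cortex and 4 were not called (median -0.27), and Slco1c1, a thyroid hormone transporter of brain vessels, differed by -1.67 ± 0.08.

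Genes of the cells that line the ventricle were higher in the hypothalamus block. Of 10 ependymal and tanycyte genes, 9 were higher in hypothalamus and 1 was not called, with a median of 2.77 (7 of the 8 in both tissues, median 2.36). Ccdc153, a gene of motile cilia, lay between -6.04 and -2.77 (median -5.01) in cortex and between 2.38 and 2.85 (median 2.59) in hypothalamus, a difference of 7.49 ± 0.35. Foxj1, the master factor of motile cilia, differed by 2.71 ± 0.12, and Tmem212, above background on 1 cortex array, was at least 227-fold higher in hypothalamus. Rarres2, a chemerin gene of tanycytes, differed by 2.82 ± 0.12 and Vim by 0.87 ± 0.10. Choroid plexus genes were also higher, 9 of 11 with a median of 2.05 (5 of 7 in both tissues, median 2.09), among them Clic6 at 4.44 ± 0.54 and Otx2, which was above background on 1 cortex array and at least 6.85-fold higher in hypothalamus. Transthyretin (Ttr), the defining product of the choroid plexus, was above background on 1 cortex array and lay between -6.03 and -4.45 (median -5.05) in hypothalamus, at least 2.57-fold higher there. Its call was lost under normexp background correction and on scan day 3 alone. Of 8 meningeal genes, 6 were higher in hypothalamus and 2 were not called (median 0.75), with Dcn at 1.60 ± 0.18.

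Markers of tissue bordering the blocks moved with some of these results. Of 10 thalamic markers, 8 were higher in hypothalamus (median 2.19; 7 of the 9 in both tissues), led by Gbx2 at 4.42 ± 0.44 with 3 cortex arrays above background, Cbln1 at 4.30 ± 0.16 and Zfhx3, a factor also known from the suprachiasmatic nucleus, at 2.93 ± 0.23. Their mean level ran from 0.09 in hypothalamus replicate 1 to 2.05 in replicate 7. Of 11 striatal markers, 4 were higher in cortex, 2 in hypothalamus and 5 were not called (median 0.10). The striatal phosphoprotein Ppp1r1b (DARPP-32) differed by -2.55 ± 0.29, and 10 of the 11 were highest in cortex replicate 3. Without that mouse 4 were higher in cortex, 4 in hypothalamus and the median was 0.41. Of 7 hippocampal markers, 3 were higher in hypothalamus and 2 in cortex (median 0.49), the latter led by Lct at -5.03 ± 0.16. The 3 blood genes tested had differences between -0.18 and 0.36 and were not called.

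Pituitary markers were called for 3 of 8 genes, all in favour of the hypothalamus, with a list median of 2.49 and of 0.84 without replicate 8, where 4 were called. Of the 6 in both tissues 1 was called with all mice. Cga, the common alpha subunit of pituitary hormones, lay between -6.09 and -4.60 (median -5.80) in cortex and between -0.57 and 7.78 (median 1.49) in hypothalamus, a difference of 7.70 ± 0.86 and of 6.82 without replicate 8. Tshb was at least 29.0-fold higher in hypothalamus, and at least 17.1-fold without replicate 8. Gh and Prl (prolactin) had the widest spread of all genes on the lists, with SDs of the within-mouse difference of 4.94 and 4.82, and neither was called (adjusted p = 0.302 and 0.103). Without replicate 8 their differences were 0.19 (adjusted p = 0.495) and 1.42 (adjusted p = 0.0387), and Prl was then called.

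Among housekeeping pathways, medians lay near 0. Of 20 cholesterol synthesis genes, 5 were higher in hypothalamus, 3 in cortex and 12 were not called (median 0.11). Of 67 subunits of oxidative phosphorylation, 20 were higher in cortex, 3 in hypothalamus and 44 were not called, with a median of -0.06. The largest difference was that of Cox8a, -0.64 ± 0.07, and the largest toward the hypothalamus was that of Ndufa6, 0.40 ± 0.06.

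The tissue difference was then set beside that of the knock-in mice, which share no arrays with the WT mice. Of 4856 probes called at 2-fold in WT, 99.71% differed in the same direction in Per3 5/5 mice and 99.94% in Per3 4/4 mice, and 96.31% and 97.16% were also called there. The median size was 1.55 in WT beside 1.5 and 1.53. A test of the difference between genotypes called 3 of 31228 probes (0.00961%) for WT against Per3 5/5 and 1 (0.0032%) for WT against Per3 4/4, and 1943 and 1562 probes passed an unadjusted p of 0.05. Nr0b1, which encodes the nuclear receptor DAX1, lay at -1.49 ± 0.24 (SD, n = 8) in the hypothalamus of WT mice and at -2.69 ± 0.42 in that of Per3 5/5 mice, and its tissue differences were 1.93 ± 0.31 apart (adjusted p = 0.0288). The predicted gene Gm9758 and 1 probe without a name were the others. All 3 probes were above background on 0 of 8 cortex arrays in every genotype, so these gaps rest in part on signal below background. None of the 3 was called when the pair of genotypes was fitted alone, where the adjusted p of Nr0b1 was 0.0636. WT arrays were scanned on days 2 and 3 and Per3 5/5 arrays on days 1 and 3, so genotype was partly confounded with scan day. With scan day as a block in limma, the adjusted p against Per3 5/5 was 0.0346 for Nr0b1, 0.152 for Gm9758 and 0.116 for the unnamed probe.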

How the data were processed

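Both tissues of each WT mouse were hybridised to Agilent 4x44K mouse arrays, 1 colour, 1 array per tissue and mouse. The authors deposited scanner files whose processed intensity had been background-subtracted and detrended by Feature Extraction. They also deposited a table of log2 values, not used here, in which values were centred within tissue (the median was 0 for 100% of probes in hypothalamus and 83.27% in cortex). Here log2 intensity minus the log2 of the array's 75th percentile over non-control spots was taken, spots of a probe were averaged and flagged spots left out. Probes entered the fit if 6 or more of the 8 arrays of either tissue read them well above background. Genes were named from RefSeq accessions (GRCm38.p6), which gave 27668 of 41174 probes a name. The tissue difference was fitted within mice with limma 3.58.1 in R 4.3.3 (lmFit and eBayes, Benjamini-Hochberg adjustment over 30916 probes), and the script was tested on simulated data. Calls were made below an adjusted p of 0.05. At 78 probes a flagged spot left fewer than 8 mice, and at least 6. The difference between genotypes was tested on within-mouse differences of all 24 mice.

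The pairing comes from the labels, which give both tissues of a mouse 1 number. The deviations of 7 of the 8 pairs from their tissue means correlated by more than 0.1 (range 0.051 to 0.384). For 5 of the 8 mice the cortex array correlated best with the hypothalamus array of its own mouse. Those of replicates 3, 5 and 8 correlated more with another mouse (0.274, 0.234 and 0.199 against 0.158, 0.223 and 0.051). The arrays of a pair also shared a slide, and the part of the slide in these correlations was not tested. P-values rest on 8 mice, and the number of arrays limits the precision. For a probe above background on no array of a tissue, a bound is given against the lowest signal well above background. Each gene list used the probe with the highest mean signal. Named genes were the 10 with the largest differences in each direction among probes seen in both tissues and in 1 tissue only, the 3 most different of each list where reported here, the defining markers, the 3 genes with the widest spread and the members of short lists. Genes of longer lists named beyond these were chosen after their values were seen. The samples and lists were chosen with earlier results of these data known.

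Alternatives were no pairing, median centring, quantile normalization, normexp background correction, other filters, the unpaired 2-group test of the study's methods, single scan days and leaving out mice. Some genes of the lists are not reported here by name.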

Additional observations from a re-analysis of the deposited data

Results flagged for a closer look

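A value was flagged where the highest or lowest of the 8 arrays of a tissue lay far from the other 7 for the range they span (Dixon's ratio, 95% level), which chance does in about 1 of 20 groups. Of the named probes 21 of 193 were flagged in cortex, 9 of them on replicate 3, and 31 of 191 in hypothalamus, 18 on replicate 3 and 13 on replicate 8. Values are log2 signals over the array's 75th percentile.

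Hypothalamus replicate 8 was above the other hypothalamus arrays for Cga (7.78), Dlk1 (4.24), Drd4 (-2.26), Esr1 (-0.08), Gh (8.09), Nr4a1 (3.15), Pcsk1 (2.67), Pomc (7.36), Prl (7.89) and Tshb (3.32). It was below them for Camk2a (1.05), Ndn (4.64) and Snrpn (3.95). Among list means, that of the pituitary markers was 4.13 there against a nearest value of -2.68, and that of the choroid plexus markers was -2.85 against -3.24.

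Hypothalamus replicate 3 was above the others for Bdnf (1.28), Crym (2.03), Egr4 (0.05), Grik1 (0.28), Kcnh2 (0.56), Slc6a11 (3.52) and Tsc22d3 (4). It was below them for Cdkn1a (-2.06), Chrm5 (-3.17), Gabrq (-2.82), Galr1 (-3.51), Kcna2 (-2.04), Nkx2-1 (-2.12), Npy1r (-3.25), Qrfp (-5.5), Rarres2 (2.86), Sst (3.13) and Zfhx3 (-0.14). The mean of the arcuate feeding genes was -1 there against -0.64, and that of the ependymal and tanycyte markers was 0 against 0.37. The mean of the microglia markers stood apart in hypothalamus replicate 2, at 1.39 against 1.05.

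Cortex replicate 3 was above the other cortex arrays for Agt (0.85), Avpr1a (-4.02), Cirbp (2.94), Dlk1 (-1.33), Igsf1 (-1.01), Nkx2-1 (-3.98) and Slc32a1 (5.81). It was below them for Htr2a (-4.83) and Neurod2 (2.73). The mean of the imprinted genes was 1.12 there against 0.71, and that of the thalamus markers was -0.87 against -1.18.

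On the remaining cortex arrays, replicate 1 was above the others for Cngb1 (-7.48), Irx5 (-7.15) and Mei1 (0.68), replicate 4 was above the others for Glra3 (-5.08) and Tsc22d3 (2.86), replicate 6 was above the others for Egr4 (3.6), Kcnh2 (-0.49) and Ttr (-4.88), replicate 7 was above the others for Cyp19a1 (-4.12), Prl (-2.68) and Vipr2 (-2.68) and replicate 8 was below the others for Dio2 (3.46). Whether neighbouring tissue in the dissected block had a part in these values was not tested.

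Leaving out the mouse of the flagged value changed 1 of these calls, that of Prl, which was called without replicate 8 (adjusted p = 0.0387). The tissue difference went from 7.7 to 6.82 for Cga, from 1.92 to 0.19 for Gh, from 3.05 to 1.42 for Prl and from 5.97 to 5.16 for Tshb without replicate 8, and from 6.82 to 7.53 for Nkx2-1 without replicate 3. The fold of each other flagged gene moved by at most 1.46 times.

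The tissue difference of WT mice was called to differ from that of knock-in mice at 3 probes. The gaps, WT minus Per3 5/5, were 1.93 for Nr0b1, 2.98 for Gm9758 and 1.07 for a probe without a gene name, each with an adjusted p of 0.0288 by limma. For the last probe the gap between WT and Per3 4/4 was 1.13 (adjusted p = 0.0303). All 3 were below background on every cortex array, and Gm9758 also on the 8 hypothalamus arrays of Per3 5/5 mice, so the gaps are not exact. Under normexp background correction the adjusted p was 7.09e-05 for Nr0b1 and 0.483 for Gm9758.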

How the results depend on the processing

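The alternatives left the direction of every called named gene as it was, and 161 of 189 called named genes kept their call under each alternative in which they were tested. With scan day 3 alone, 21 called named genes lost their call, among them Foxp2, Kcna2, Kcna5, Nts and Tshb. The numbers of probes called changed by less than 1.5-fold except in the following cases. With the 3 mice of scan day 3 alone, 10890 probes were called, 6027 higher in hypothalamus and 4863 in cortex, against 13970 with the 5 mice of scan day 2. At 2-fold, normexp background correction gave 2800 probes (1250 and 1550), and a test against a 2-fold difference gave 2676 (1346 and 1330). Requiring signal on all 16 arrays left 1635 probes higher in hypothalamus at 2-fold. Of probes whose tissue difference was called to differ in Per3 5/5 mice, 0 were left after median centring and 0 with the pair of genotypes fitted alone. Scan day as a block gave 2 and normexp gave 35. For Per3 4/4 mice the counts were 0 with the pair alone, 0 with scan day as a block and 89 with normexp. The causes of these changes, beyond the smaller number of mice or probes, were not tested.

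Each pair of arrays came from 1 mouse, and without the replicate block 17191 probes were called, 9292 higher in hypothalamus and 7899 in cortex, and 4847 at 2-fold (2457 and 2390), and none of 102 list counts and medians moved by over 1.5 times or by more than their spread. Leaving out 1 mouse at a time gave 16385 to 19128 called probes (8778 to 10277 higher in hypothalamus, 7506 to 8851 in cortex) and 4769 to 4967 at 2-fold (2380 to 2525 and 2321 to 2480). Leaving out replicates 3 and 8 together, an alternative chosen after the data were seen, gave 18957 called probes. Of the 102, 15 moved under normexp, 21 with scan day 3 alone, 12 with signal on all 16 arrays and 8 or fewer under each other setting, and none reversed. Gh changed sign without replicates 3 and 8 (-0.025), and Per3 with scan day 3 alone (0.015). Per3 was called under median centring and under quantile normalization, and Sst under median centring. Signal over background limits the values of genes that were dark in 1 tissue, for which the text gives bounds or fitted values that rest in part on signal at background.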
